A study of Caenorhabditis elegans with 2 samples.

Results

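Regions of LIM-6 chromatin immunoprecipitation signal at the genes of small nucleolar RNAs (snoRNAs) and spliceosomal small nuclear RNAs (snRNAs) numbered 253 of the 25887 regions in the pooled list. A region was included when its summit, the base of highest signal, lay within 500 bp of a gene annotated as snoRNA or snRNA in Ensembl's WBcel235 models, spliced leader (sls) genes included, and farther than 250 bp from any tRNA gene. No signal value entered that choice, and all regions were kept whatever their signal. The 2 libraries came from whole hermaphrodite late embryos of the Caenorhabditis elegans strain OP388, genotype unc-119(ed3) III; wgIs388, collected 5 hours after worms had been synchronized by bleaching of eggs. The transgene wgIs388 makes LIM-6, which is a transcription factor of the LIM homeodomain kind, fused at its C-terminal end to GFP and FLAG, and the immunoprecipitation used an antibody to GFP. Both libraries, biological replicates 1 and 2 by their labels, carry all of these alleles and form 1 group, so there was no contrast between conditions. The labels do not state which sequences drive the transgene, and a whole embryo mixes all cell types.

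SnoRNAs guide the modification of other RNAs, chiefly ribosomal RNA. The C/D type directs ribose methylation by the fibrillarin enzyme, and the H/ACA type directs the change of uridine to pseudouridine. SnRNAs are the RNA cores of the spliceosome, and the sls genes encode the spliced leader RNAs that are joined to the 5′ ends of nematode messages by trans-splicing. A snoRNA gene can lie inside an intron of a protein-coding host and be cut out of the host transcript, or it can have a promoter of its own. Genes for tRNAs are transcribed by RNA polymerase III from internal A and B boxes that bind the factor TFIIIC, whereas snRNA genes are served by an upstream proximal sequence element that binds the SNAPc complex.

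The sequences below begin 110 bases before the annotated 5′ end of a gene and end 10 bases into it, on the gene's strand, and were read from the RefSeq copy of WBcel235, the assembly also named ce11. They are shown because most summits of the strongest regions fell within these stretches or close to them. The first set holds the 5 regions of highest signal whose nearest gene carried TGGNNNA, a match to the core of the tRNA A box, followed 30 to 75 bases later by GTTCNANNC, a match to the core of the tRNA B box. Both elements are in capitals. These genes were W03C9.9 at chrII:11960788-11960907 on the plus strand, T03F7.8 at chrV:11314148-11314267 on the plus strand, C04G6.12 at chrII:5105222-5105341 on the minus strand, Y43F8C.22 at chrV:19643178-19643297 on the minus strand and F32E10.10 at chrIV:7574012-7574131 on the plus strand.
W03C9.9: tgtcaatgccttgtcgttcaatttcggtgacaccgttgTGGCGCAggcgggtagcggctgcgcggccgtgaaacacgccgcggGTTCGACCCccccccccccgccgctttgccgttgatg
T03F7.8: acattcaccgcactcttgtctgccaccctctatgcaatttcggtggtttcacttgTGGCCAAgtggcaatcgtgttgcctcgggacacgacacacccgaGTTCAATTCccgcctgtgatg
C04G6.12: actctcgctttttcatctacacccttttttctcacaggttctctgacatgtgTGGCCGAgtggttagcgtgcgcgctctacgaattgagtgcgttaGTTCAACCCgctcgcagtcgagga
Y43F8C.22: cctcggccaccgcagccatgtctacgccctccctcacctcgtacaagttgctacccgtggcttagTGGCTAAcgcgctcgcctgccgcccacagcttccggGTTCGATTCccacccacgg
F32E10.10: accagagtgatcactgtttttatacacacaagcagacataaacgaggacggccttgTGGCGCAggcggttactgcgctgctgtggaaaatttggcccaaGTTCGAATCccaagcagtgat

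The second set holds 4 reproducible regions whose nearest gene carried TGTCNG at positions -80 to -35 from the 5′ end, in capitals, where snRNA genes have their proximal element. A TATAA closer to the gene is also in capitals. These genes were C51F7.4 at chrV:12303489-12303608 on the plus strand, ZK994.7 at chrV:8500469-8500588 on the plus strand, W05B2.8 at chrIII:10989569-10989688 on the plus strand and sls-2.1 at chrII:5844755-5844874 on the plus strand.
C51F7.4: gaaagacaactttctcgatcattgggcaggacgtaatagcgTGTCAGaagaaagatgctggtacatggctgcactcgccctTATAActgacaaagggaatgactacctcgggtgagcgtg
ZK994.7: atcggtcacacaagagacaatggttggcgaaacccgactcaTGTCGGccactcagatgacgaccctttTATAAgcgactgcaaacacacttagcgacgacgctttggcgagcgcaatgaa
W05B2.8: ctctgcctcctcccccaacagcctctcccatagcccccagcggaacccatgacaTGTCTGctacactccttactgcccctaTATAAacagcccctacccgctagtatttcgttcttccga
sls-2.1: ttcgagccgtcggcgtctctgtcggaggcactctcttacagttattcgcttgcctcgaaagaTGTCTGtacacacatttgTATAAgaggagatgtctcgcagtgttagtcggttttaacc

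The third set had neither of these letter patterns at full length and has no capitals. These genes were T06C12.16 at chrV:15873917-15874036 on the minus strand, F38E11.14 at chrIV:9477690-9477809 on the minus strand and Y17G7B.25 at chrII:12042137-12042256 on the minus strand. Upstream of T06C12.16 a first element was followed by a B-box-like run that lacked the last letter searched. Upstream of F38E11.14 a first element was followed by gttcatttc, which has T where the search required A. Near matches of this kind were not counted over all genes, apart from the shortened second element below.
T06C12.16: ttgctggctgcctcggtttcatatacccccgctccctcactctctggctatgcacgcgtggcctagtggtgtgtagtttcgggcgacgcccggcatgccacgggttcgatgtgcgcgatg
F38E11.14: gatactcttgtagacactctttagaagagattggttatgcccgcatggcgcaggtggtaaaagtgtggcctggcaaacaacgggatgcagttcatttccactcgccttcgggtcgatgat
Y17G7B.25: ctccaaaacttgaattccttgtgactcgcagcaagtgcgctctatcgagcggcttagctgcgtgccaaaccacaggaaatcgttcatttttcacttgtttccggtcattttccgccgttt

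Of the relaxed lists, that of replicate 1 had 21953 regions, that of replicate 2 had 27731 and the pooled one had 25887. The authors' list of reproducible peaks held 570 regions, and no pooled region outside it had a higher signal than its lowest, 80.0. A region called reproducible here is therefore also one of high pooled signal. The signal is the authors' value per region, and their control libraries were not used here. Of read depth nothing is given in the sources used here, and the intervals below are exact Clopper-Pearson 95% intervals that cover counting error over regions only. Regions are not replicates, and no test was made between groups of regions.

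Among regions at snoRNA and snRNA genes, 48 of 253 were reproducible, or 19.0% (interval 14.3 to 24.4%), against 2.20% of all pooled regions. Their median pooled signal was 36.2, against 27.9 for all other pooled regions. The upper quartile was 60.6 at these genes and 35.4 over the other regions. Their share rose toward the top of the list, where 6 of the 20 highest pooled regions and 10 of the 50 highest lay at these genes. Of the 2000 highest, 77 did so. Regions at these genes were 0.977% of the whole list.

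By RNA class, 43 of 213 regions at snoRNA genes were reproducible (20.2%, 15.01 to 26.2%), with a median signal of 36.3. At snRNA genes the number was 5 of 40 (12.5%, 4.19 to 26.8%), with a median signal of 33.5, and the 2 intervals overlapped. Sorted by the place of the gene, 15 of 102 regions at intronic genes were reproducible (14.7%, 8.47 to 23.1%) and 23 of 100 at independent genes (23.0%, 15.2 to 32.5%). An intronic gene lies in an intron of a protein-coding gene on the same strand, and an independent gene overlaps no protein-coding gene on either strand. The third class, which overlaps a protein-coding gene on the opposite strand or an exon, had 10 of 51 reproducible (19.6%, 9.82 to 33.1%). Median signals were 34.05 for the intronic, 39.5 for the independent and 31.6 for the third class, and signals ran from 20.6 to 291.3, from 20.7 to 323.5 and from 20.55 to 305.3 in that order. The classes overlapped over nearly their whole range of signal.

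**Figure D1:**
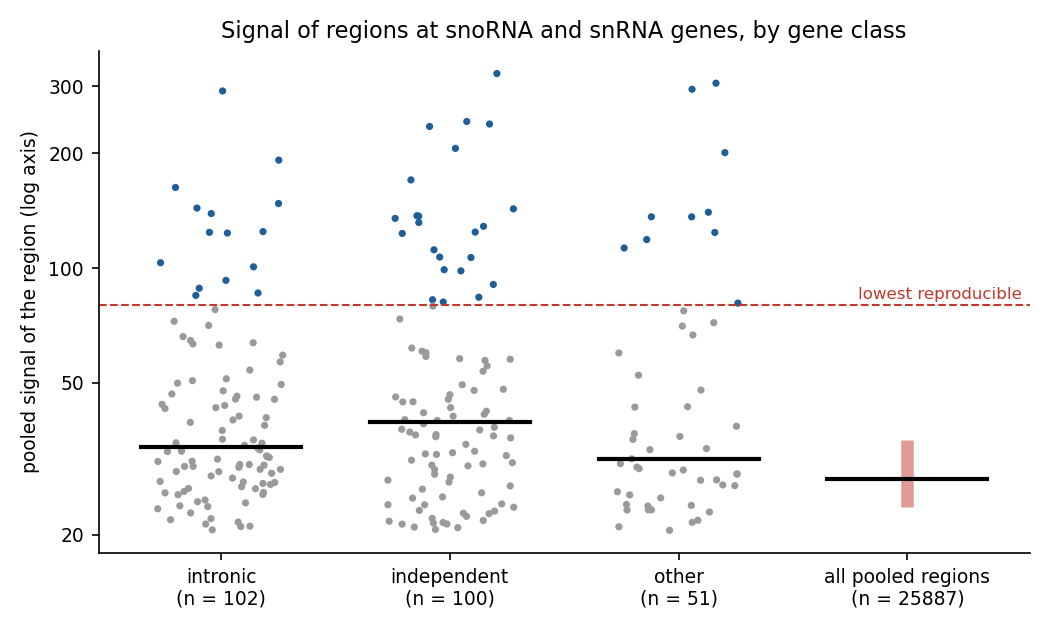
Pooled signal of each region at a snoRNA or snRNA gene, by gene class, on a log axis, with reproducible regions in blue, other regions in grey and black lines at the medians. The fourth column gives the median and the quartiles (red bar) of all 25887 pooled regions. Every class has regions above the dashed line at the lowest reproducible signal, 80.0, and the medians of the 3 classes, 34.05, 39.5 and 31.6, lie above that of all pooled regions.

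Counted by gene, 51 of the 475 annotated small RNA genes had a reproducible region in reach (10.7%, 8.10 to 13.9%), whereas 2.61% of protein-coding genes had a reproducible peak in their promoter window. A promoter window here runs from 1000 bp upstream to 500 bp downstream of a transcript's 5′ end, so the 2 shares rest on spans of different length. Of the 346 snoRNA genes 45 were reached (13.0%, 9.65 to 17.0%), and of the 129 snRNA genes 6 (4.65%, 1.73 to 9.85%). A pooled region of any signal was in reach of 187 snoRNA genes and 37 snRNA genes. Another gene of identical sequence exists for 44 of the 129 snRNA genes and for none of the snoRNA genes. The part of this in the difference was not tested. By chromosome, the reproducible regions were 13 of 56 on II, 11 of 53 on I, 9 of 45 on IV, 9 of 40 on V and 6 of 46 on III. None lay on X, which has 36 of the genes and 13 of the regions. The share of all reproducible peaks that lie on X is not given here, so the absence cannot be set against it.

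Summits of reproducible regions gathered just upstream of the gene. In positions counted from the annotated 5′ end along the gene, negative upstream, their median was -45, with quartiles of -64 and -12. Of the 48 summits, 39 were upstream of the 5′ end, 33 of them within 100 bp, while 7 lay inside the gene and 2 beyond it. Regions that were not reproducible had a median of -21 but quartiles of -152 and 166, and 47 of these 205 summits fell in the same 100 bp. Reproducible summits at intronic genes had a median of -45 and those at independent genes a median of -52.

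**Figure D2:**
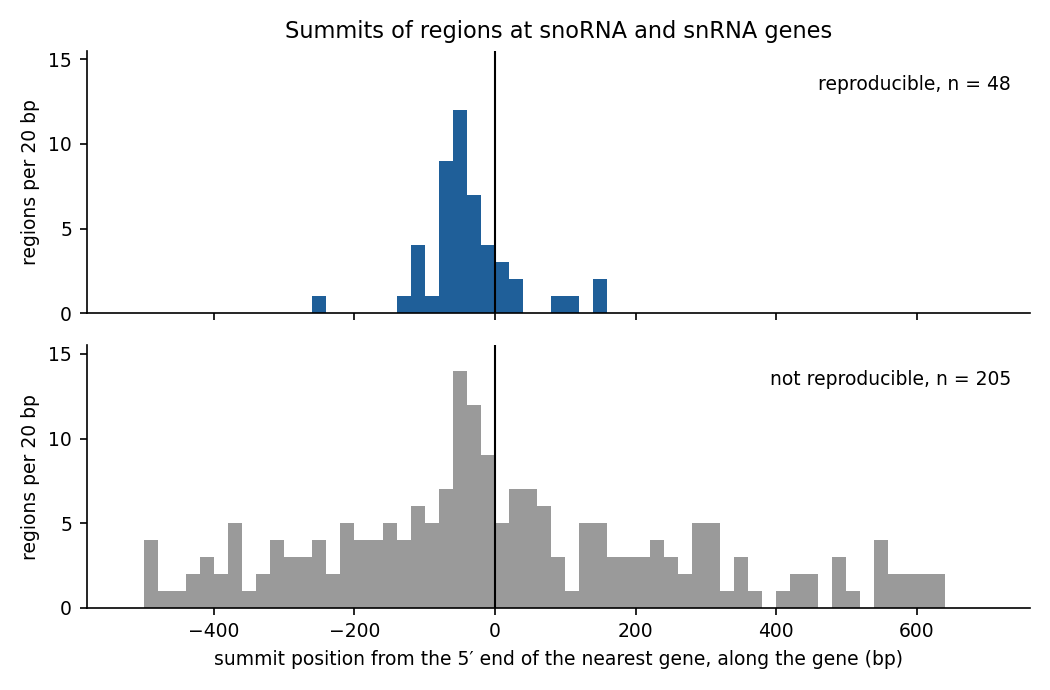
Number of regions per 20 bp by summit position from the 5′ end of the nearest snoRNA or snRNA gene, for the 48 reproducible regions (top) and the 205 others (bottom). Reproducible summits pile up within 100 bp upstream of the 5′ end, with a median of -45, while the others spread over the whole range, with 47 of 205 in those 100 bp.

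The highest region of all at these genes belonged to the independent snoRNA gene W03C9.9. Its region at chrII:11960705-11960954 had a pooled signal of 323.5, at rank 5 of the whole list, with 156.0 in replicate 1 and 167.1 in replicate 2. Its summit sat at position -73, on the base before the A-box-like element printed above. T06C12.16 on chromosome V followed among independent genes, with 242.3 pooled and 108.4 and 132.5 in replicates 1 and 2, at position -44. Y17G7B.25 had a pooled signal of 238.6 and library signals of 128.9 and 120.5. Its summit lay at position -252, the farthest upstream of any reproducible one, in the promoter window of ippk-1, which encodes an inositol phosphate kinase.

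ZK265.10 on chromosome I had a pooled signal of 235.1, with 123.2 in replicate 1 and 107.4 in replicate 2. F59C6.15, also on chromosome I, had 206.0 pooled and 84.7 and 120.7 in replicates 1 and 2. The summits at ZK265.10 and F59C6.15 lay in the promoter windows of sre-23 and F59C6.18, in that order. Further down, F32E10.10 on chromosome IV had 170.3 pooled, with library signals of 71.5 and 94.2. In each of these independent genes both libraries were far above the median signal of their own list, 16.6 for replicate 1 and 15.9 for replicate 2. Which library was higher varied, since replicate 1 led at Y17G7B.25 and ZK265.10 and replicate 2 at the others.

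Regions at intronic genes also reached high signals. The highest, with 291.3 pooled, 128.8 in replicate 1 and 155.8 in replicate 2, lay at chrV:8500471-8500669 over the start of ZK994.7, in an intron of pxn-1, a peroxidasin of the extracellular matrix. Its summit was 5694 bp from the nearest 5′ end of the host. Y43F8C.22 in Y43F8C.7 had a pooled signal of 191.9, with 85.8 and 101.9 in replicates 1 and 2, and a summit at position -47. W05B2.8, an snRNA gene in dhc-4, a dynein heavy chain gene, had 162.7 pooled and 82.3 and 82.6 in the libraries, 19824 bp from the host's 5′ end. F38E11.14 in cng-3, a cyclic nucleotide-gated channel gene, had 147.7, with 77.2 and 73.8 in the libraries. Its summit lay in the promoter window of another gene, wrt-3, and on an annotated ncRNA. D1046.6 in cfim-2, which encodes a subunit of a pre-mRNA cleavage factor, had 143.7, with 58.1 in replicate 1 and 86.1 in replicate 2.

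Few of these summits lay in the promoters of the hosts. Of the 15 reproducible regions at intronic genes, 3 had their summit in the promoter window of the host, at D1046.6 in cfim-2, F55A11.10 in F55A11.6 and Y37E3.20 in pcyt-2.1. The median distance from summit to host 5′ end was 1332 bp for the 15 reproducible regions and 918 bp for the other intronic regions. Inside the host promoter window 3 of 39 regions were reproducible (7.69%, 1.62 to 20.9%), and outside it 12 of 63 (19.0%, 10.2 to 30.9%), with overlapping intervals. The 178 intronic genes lay in 152 hosts, of which 87 had a region and 15 a reproducible one. No host had more than 1 reproducible region.

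Ribosomal protein genes, classic hosts of intronic snoRNAs, were 13 of these hosts and held 19 of the genes. None of their 11 regions was reproducible, and the exact interval for 0 of 11 reaches up to 28.49%. The highest had a pooled signal of 64.6, at F54E7.10 in rps-12, and 7 of the 11 summits lay in the promoter window of the host. Their median signal was 43.6, beside 34.05 for all intronic regions. The hosts rpl-15 and rps-23 did have a reproducible peak in their own promoter window, which was not among these 11 regions. All ribosomal protein hosts counted here that had a region bore rpl or rps names. Of all hosts, 15 held 2 or more regions, among them dhc-4, mix-1 and unc-41, each with 1 reproducible region. In each of these hosts the other region overlapped the reproducible one, had the same nearest gene and took the same library signals. Such pairs need not be separate sites.

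Among genes of the third class, T03F7.8 had a pooled signal of 305.3, with 149.0 in replicate 1 and 155.9 in replicate 2. It lies on the strand opposite to its host cutl-18, a gene of the cuticlin-like family, and its summit was at position -45. C51F7.4, in frm-7, had 294.3 pooled, 123.3 in replicate 1 and 172.8 in replicate 2, with the summit 31 bases inside the gene. The same region was also in reach of C51F7.3, a snoRNA gene in an intron of frm-7 that carries the pair of A-box-like and B-box-like elements at positions -99 and -44, and the summit lies between the starts of both. C04G6.12, opposite to mpk-2, a MAP kinase gene, had 200.8 pooled, and 89.7 and 109.4 in the libraries. Of the 10 reproducible regions in this class 8 were at genes on the strand opposite to the host, where 32 regions lay in all.

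Among snRNA genes, 3 of the 5 reproducible regions were at spliced leader genes of the sls-2 family. The region nearest to sls-2.4 had a pooled signal of 143.0, with 71.0 and 76.6 in replicates 1 and 2. At sls-2.1 the values were 137.2 pooled, 62.7 in replicate 1 and 72.7 in replicate 2, and at sls-2.2 they were 136.9, 55.5 and 78.2. Summits were at positions 109, -37 and 156, so only that of sls-2.1 was upstream. The summits at sls-2.4 and sls-2.1 lay in the promoter windows of egg-5 and H41C03.3, in that order. Of the 18 sls-2 genes 4 had a reproducible region in reach, whereas none of the 12 sls-1 genes had a region of any signal. Each sls-1 gene has at least 1 other gene of identical sequence, and the exact interval for 0 of 12 genes reaches up to 26.5%.

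The other 2 were copies of repeated snRNA genes on chromosome III. W05B2.8 is 1 of 14 genes that share the Ensembl name R07E5.16 and the same sequence, and only 55.0% of the 31-mers around its summit occurred once in the genome. Of those 14 genes 4 had a pooled region. C28A5.7 had a pooled signal of 56.8, with 28.1 and 33.4 in the libraries, and R07E5.16 itself had 45.4, with 26.7 and 25.3, neither of them reproducible. F54D8.7, 1 of 3 genes of identical sequence, had 81.5 pooled, and 43.7 and 42.4 in replicates 1 and 2. Its summit lay 4 bases inside the gene, in the promoter window of cox-6A, a cytochrome c oxidase subunit gene, with 52.6% unique 31-mers. Reads from such copies cannot be assigned to 1 copy with certainty.

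In most of the other regions the sequence was unique. At least 90% of the 31-mers within 100 bp of the summit occurred once in the assembly in 45 of the 48 reproducible regions and in 228 of all 253, compared with 90.7% of all pooled regions. For snRNA genes the number was 25 of 40. Besides W05B2.8 and F54D8.7, the reproducible region below 90% was that of sls-2.1, with 69.6%.

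Counterparts in the library lists were counted at an overlap of at least 1 bp. A region of the replicate 1 list overlapped 212 of the 253, one of the replicate 2 list overlapped 220, and 182 were overlapped in both (71.9%, 65.97 to 77.4%), against 46.5% of all pooled regions. With summits required to lie within 100 bp, 119 of the 253 had a counterpart in both (47.04%). The 46.5% is for the overlap of 1 bp, and the share of all pooled regions under the summit rule is not given here. By overlap, the share in both lists was 69 of 102 at intronic genes (67.6%, 57.7 to 76.6%) and 77 of 100 at independent genes (77.0%, 67.5 to 84.8%). The log2 ratio of replicate 1 over replicate 2 had a median of -0.11 and an SD of 0.56 at these genes, and a median of -0.0047 with an SD of 0.51 over all pooled regions in both lists. Reproducible regions had a median ratio of -0.18 and an SD of 0.45, and replicate 1 was higher in 13 of the 48. Over all 570 reproducible peaks the median was -0.075 with an SD of 0.48, and replicate 1 was higher in 238.

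The log2 ratio ran from -1.845 to 1.29 over the 182 regions in both lists. Among the 48 reproducible ones the extremes were K11C4.6 in unc-70, the gene of beta-spectrin, with 55.8 in replicate 1 and 26.5 in replicate 2 (log2 ratio 1.07), and B0334.12 opposite to twk-5, a potassium channel gene, with 46.97 and 92.7 (log2 ratio -0.98). The summit at B0334.12 lay beyond the gene, at position 153, in the promoter window of twk-5. Among the 570 highest regions of each library's own list, 46 of the 48 reproducible regions were found in replicate 1 and 41 in replicate 2. When the rule was applied to the library lists themselves it gave 237 regions in replicate 1, of which 49 were among the 570 highest, and 273 in replicate 2, of which 46 were. The median position of those high regions was -36 in replicate 1 and -43 in replicate 2. Outside the reproducible list, 8 regions had signals over 45 in both libraries, and in all 8 the library regions also overlapped a neighbouring reproducible region.

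**Figure D3:**
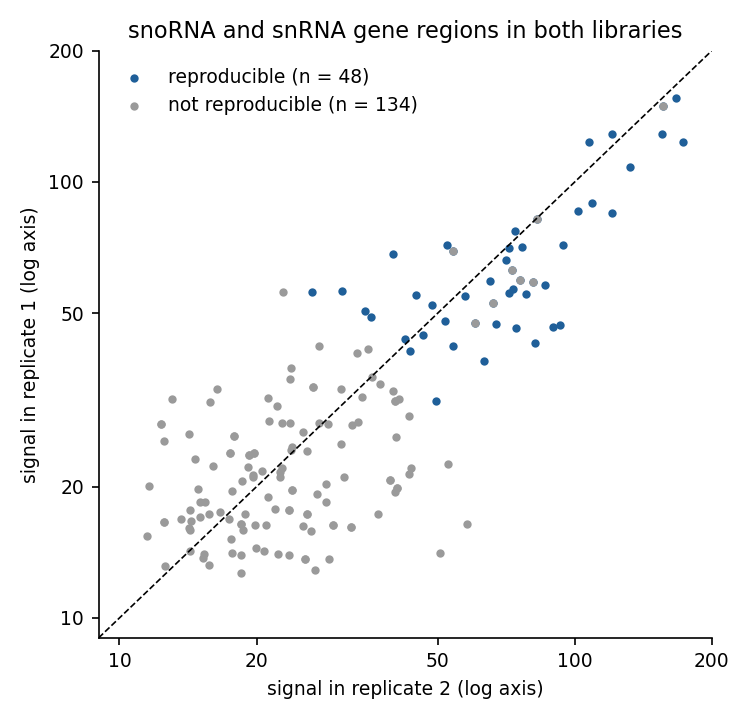
Signal in replicate 1 against signal in replicate 2, on log axes, for the 182 regions with an overlapping region in both lists, reproducible in blue and others in grey. The dashed line marks equal signal. Blue points run up to 156.0 in replicate 1 and 172.8 in replicate 2. All 8 grey points with both signals over 45 share their library regions with a reproducible neighbour, and other grey points lie among the lower blue ones.

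The pair of A-box-like and B-box-like elements was found upstream of 26 of the 475 genes, all of them snoRNA genes. These letters were chosen after the sequences of reproducible regions had been read, so the counts that follow describe them and test nothing. A reproducible region was in reach of 21 of the 26 genes, and of 30 of the 449 genes without the pair. By place the numbers were 8 of 10 intronic genes, 8 of 10 independent genes and 5 of 6 genes of the third class. In the same window, 150 bp upstream to 30 bp downstream of the 5′ end, the pair occurred at 0.185% of protein-coding genes, and it occurred in 73.9% of annotated tRNA genes themselves. Of the 5 genes with the pair and no reproducible region, 2 had no region at all. The 3 others, ZK546.18, R166.7 and Y39G10AR.24, reached pooled signals of 63.3, 29.7 and 57.3.

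The first element began at positions between -99 and -42, median -56, in the 21 genes with a reproducible region, and the second between -44 and -5, median -14. In the 20 reproducible regions nearest to such a gene, 14 summits lay on the elements or between them. Their distance from the start of the first element ran from -42 to 45 bp. A second element shortened to GTTCNA raised the number to 24 of the 51 reached genes, including T06C12.16, beside 16 of the 424 genes that were not reached.

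**Figure D4:**
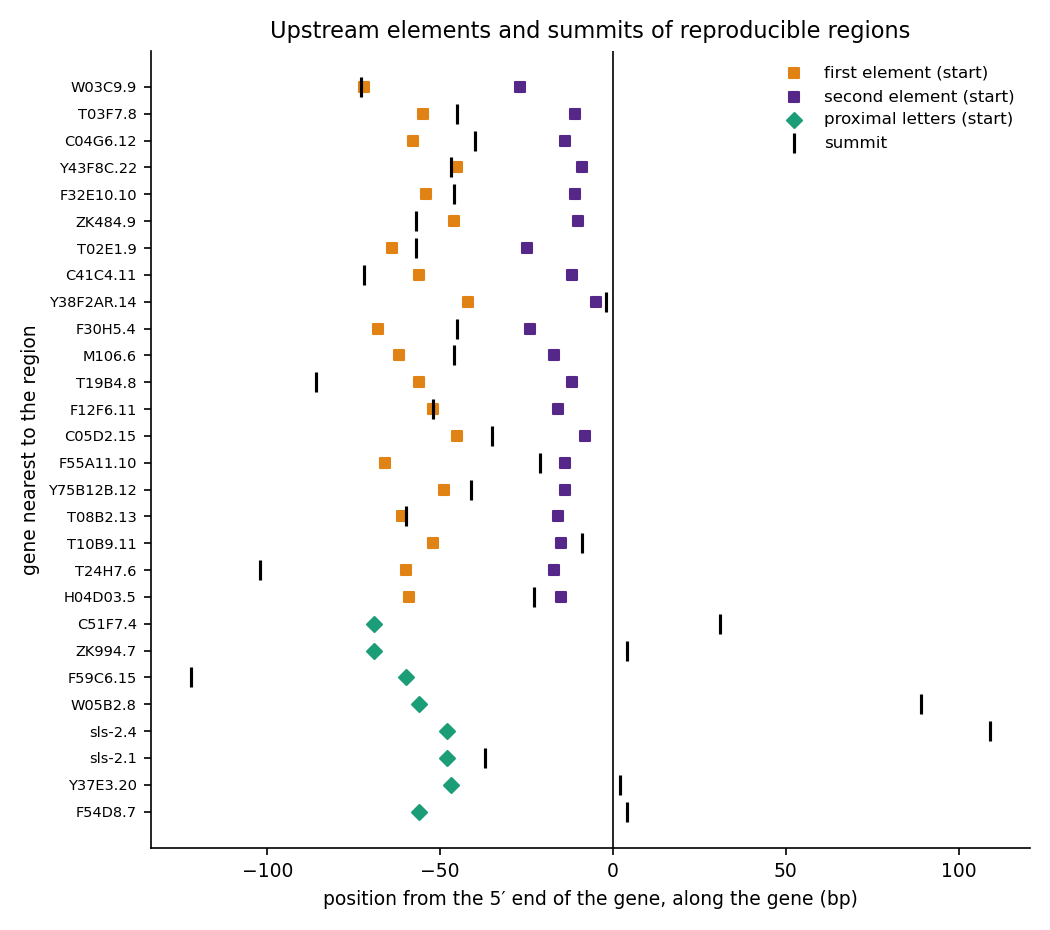
Start of the first (A-box-like) and second (B-box-like) element or of the proximal letters TGTCNG, and the summit of the region (black bar), in bp from the 5′ end of the gene, for the 28 reproducible regions whose nearest gene carries either pattern. In the upper 20 rows most summits lie near the first element or between both elements, and in the lower 8 they run from -122 to 109.

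The proximal letters TGTCNG were far more common than the reproducible regions. They stood at positions -80 to -35 in 129 of the 475 genes, 78 of the 129 snRNA genes and 26 of the 30 sls genes, and in 2.74% of protein-coding genes. A reproducible region was in reach of 10 of those 129 genes and of 41 of the 346 without the letters. Another gene of identical sequence exists for 34 of the 129 and for 10 of the 346, and the part of this in the difference was not tested. Of the 10 R07E5.16-named copies with the letters, 8 also had the TATAA, and 1 of the 14 copies was reached. Neither pattern was present at 321 genes, of which 21 were reached.

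Within 100 bp of the summit, on either strand, the pair of elements was present in 25 of the 253 regions at snoRNA and snRNA genes, in 179 of 368 regions within 250 bp of an annotated tRNA gene and in 310 of the regions elsewhere. Of those regions, 22 of 25 were reproducible at snoRNA and snRNA genes, 42 of 179 at tRNA genes (23.5%) and 7 of 310 elsewhere (2.26%). The letters were chosen after sequences of reproducible regions at snoRNA and snRNA genes were seen. That choice favours a high share there, so the groups cannot be ranked by these shares. Without the pair the shares were 26 of 228 at snoRNA and snRNA genes (11.4%), 17 of 189 at tRNA genes (8.99%) and 1.83% elsewhere. Median signals with the pair were 124.1 at snoRNA and snRNA genes, 52.7 at tRNA genes and 27.6 elsewhere. Elsewhere the share with the pair was thus close to the 2.20% of all pooled regions. Summit windows with at least 90% unique 31-mers numbered 228 of 253 at snoRNA and snRNA genes and 118 of 368 at tRNA genes, and the part of this in the difference was not tested.

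**Figure D5:**
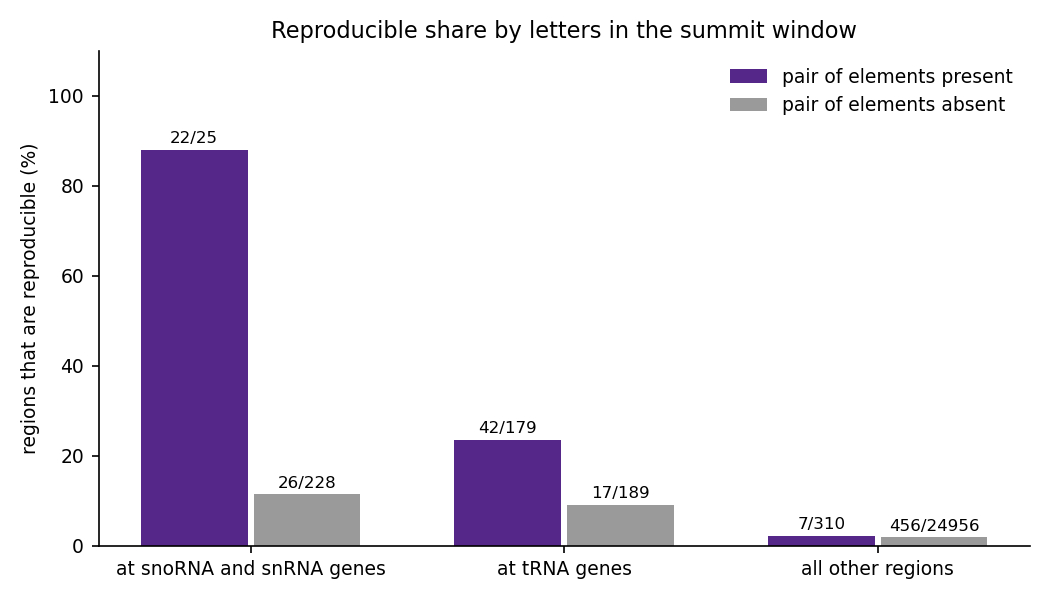
Percentage of pooled regions that were reproducible, for regions whose summit window holds the pair of A-box-like and B-box-like elements (purple) or lacks it (grey), with the counts above the bars. The purple bar stands for 22 of 25 at snoRNA and snRNA genes, 42 of 179 at tRNA genes and, near the grey bar, 7 of 310 elsewhere. The letters were chosen after sequences of reproducible regions at snoRNA and snRNA genes were seen, so the purple bars cannot be ranked.

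With or without the pair, 48 of the 253 regions at snoRNA and snRNA genes were reproducible (14.3 to 24.4%) and 59 of the 368 at tRNA genes (16.03%, 12.4 to 20.2%), with overlapping intervals. The median signal was 36.2 at snoRNA and snRNA genes and 39.6 at tRNA genes. The highest signals were 323.5 at snoRNA and snRNA genes and 209.6 at tRNA genes, and 7 regions at snoRNA genes exceeded every region at tRNA genes.

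Further letters were counted at the summits. TAATTA, the core bound by many homeodomain proteins, was within 100 bp in 20 of the 253 regions (7.91%, 4.89 to 11.9%) and in 7.58% of all pooled regions. In reproducible regions it was present in 2 of 48 (4.17%, 0.51 to 14.25%), beside 8.25% of all 570 reproducible peaks. GAGAGA was present in 49 of the 253 (19.4%, 14.7 to 24.8%) and in 17.6% of all pooled regions. Reproducible regions had it in 13 of 48 (27.1%, 15.3 to 41.9%), against 34.6% of all 570 reproducible peaks. TATAAA was present in 39 (15.4%) and GTCGG in 61 (24.1%), with 14.9% and 19.6% of all pooled regions. GGTTCGA, the core of the B box, was present in 13 of the 253 (5.14%, 2.76 to 8.63%) and in 2.36% of all pooled regions. In reproducible regions it was present in 8 of 48 (16.7%, 7.48 to 30.2%), beside 9.30% of all reproducible peaks. Mean GC content of the summit windows was 44.5% ± 7.37 at snoRNA and snRNA genes and 41.5% ± 8.004 over all pooled regions (SD over regions). It was 48.3% ± 5.29 in the 48 reproducible ones, beside 45.1% ± 7.54 in all reproducible peaks.

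Of all 6-letter words, counted on both strands, AACCCG had the largest excess at these genes. It was in 14.2% of their windows and in 5.01% of all pooled windows. CTGCGC was in 13.8% of their windows and in 4.78% of all pooled windows.

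Many of these regions touched other annotation as well. Summits lay in a protein-coding promoter window in 111 of the 253 regions (43.9%) and in 37.5% of all pooled regions. For the reproducible ones the order was the other way round, with 20 of 48 (41.7%), against 65.6% of all 570 reproducible peaks. Another noncoding annotation overlapped the summit in 25 of the 253 regions, and an annotated ncRNA did so in 7 of the 48 reproducible ones. The matching shares of all pooled regions and of all reproducible peaks are not given here, so these counts cannot be set against them. Of the 253 regions, 8 reached 2 or more small RNA genes, and those were assigned to the nearest.

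Protein-coding genes of the same and related pathways were listed as well, with earlier results of these data known. Most were for snoRNA-protein complexes, snRNA transcription, the Integrator complex that processes snRNA 3′ ends and RNA polymerase III. The list also held other genes, such as tut-1, znf-622 and nol-6. Of the 38 listed genes, 34 matched a gene model. A pooled region lay in the promoter window of 24, where 41.0% of all protein-coding genes had one. Of these 34, 2 had a reproducible peak, where 2.61% of protein-coding genes did. fib-1, the gene of fibrillarin, had a pooled signal of 206.8, with 97.2 in replicate 1 and 106.9 in replicate 2. ints-8, an Integrator subunit gene, had 80.6, with 42.1 and 35.5, just above the lowest reproducible signal. The pseudouridine synthase gene dkc-1 had 53.4 and was not reproducible, and no region of the replicate 1 list overlapped it. snpc-4, the large SNAPc subunit, had no pooled region there.

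Regions next to the distance limit had low signals. The region just inside 500 bp, at F19G12.14 on chromosome X, had a pooled signal of 25.8 at 499 bp. Those just outside, both at 503 bp, were at F53G12.12 with 26.7 and at W05B2.9 with 28.1. None of these was reproducible. The 3 regions left out because a tRNA gene was near had signals of 52.1, 23.9 and 31.4, at sls-2.9 and M163.14, and none was reproducible. Among regions at snoRNA and snRNA genes that were not reproducible, the highest signal was 79.5, at D2021.6 on chromosome X, with 55.97 in replicate 1 and 22.8 in replicate 2.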

How the data were processed

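ChIP-seq with an anti-GFP antibody was done on 2 libraries of whole late embryos. Per the deposited notes, the authors derived each relaxed region list from the alignments of a library, or of both, together with a control, and the thresholded list from the 3 relaxed lists. The signal column deposited by the authors gives 1 value per region. It was used as deposited, and pooled and single-library signals were not compared in scale. For the aligner, the peak caller, their versions and the read depth, nothing is given in the sources used here. Only ce11 files were used, and ce10 lists and control libraries were not analysed here. Summits were set against Ensembl release 115 genes of WBcel235, and sequences came from the RefSeq copy of that assembly.

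A library region matched a pooled region at an overlap of at least 1 bp, and the highest signal was taken. Python 3.11.15, numpy 2.4.6, pandas 2.3.3 and scipy 1.17.1 were used. Shares have exact 95% intervals. No p-value was computed. The classing, distance and element searches were checked on planted genes with known answers. Named genes were those nearest to the 15 highest regions, the 5 highest intronic and independent ones, every snRNA gene with a reproducible region, their hosts, the regions next to the distance limit and the extremes of the library ratio. Genes named beyond that rule were chosen after their values were seen. The regions, lists and alternatives were chosen with earlier results of these data known, and the letters TGGNNNA, GTTCNANNC, TGTCNG and TATAA after the sequences were seen.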

Additional observations from a re-analysis of the deposited data

How the results depend on the processing

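Distance, tRNA exclusion, signal threshold, uniqueness, overlap and the library used were varied 1 at a time. A limit of 1000 bp gave 397 regions, of which 13.9% were reproducible and 65.7% in both library lists. Keeping the pooled regions at or above the median signal gave a median of 45.4, with 26.4% reproducible and 88.5% in both lists. Counting as reproducible only the peaks above the middle of the 570 by signal gave 13.8%. A match of library regions by summits within 100 bp left 47.04% in both lists, and a reciprocal overlap of 50% left 59.7%. For neither rule is the matching share of all pooled regions given here. Leaving out a library, that is applying the rule to the other library's own list with its 570 highest regions, gave 237 to 273 regions, 16.9 to 20.7% of them in the top set, 14.3 to 16.8% at intronic and 19.0 to 22.3% at independent genes. The median signal there was 19.8 for either library, on the scale of single-library lists. A limit of 250 bp gave 196 regions. Of these, 15 of 68 were reproducible at intronic genes (22.1%) and 22 of 85 at independent genes (25.9%), beside 14.7% and 23.0% at 500 bp. That limit, no tRNA exclusion and 90% unique windows moved none of the shares, nor the median signal, beyond their intervals. Of the 48 reproducible regions 47 lay within 250 bp. Motif windows of 50 bp lowered the shares of GAGAGA to 11.1%, TAATTA to 3.16%, TATAAA to 9.09% and GTCGG to 14.6%. Alternatives chosen after seeing the data were other letters of the pair of elements (47.1% of reached genes with GTTCNA and 37.3% with a gap of up to 50 bp, beside 41.2%) and summits outside every protein-coding promoter window (18.2% reproducible at intronic and 21.1% at independent genes). With 2 libraries and no depth, the number of regions limits the precision of every share.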
